A study of Ovis aries with 32 samples.

Results

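PPARG, RXRB and NCOR1 encode a nuclear receptor, a partner with which that receptor binds DNA, and a corepressor. They are 3 of the 14367 genes and unnamed probes measured on a sheep expression array, and they were chosen by name and role, at a time when earlier results of these data were known. Each was read by a single probe, spotted once per array. The probe of PPARG was named through its accession. The probes of RXRB and NCOR1 were found because their near-term group means matched those listed for these genes among the genes altered by PHE in the near-term fetus. The near-term PHE difference of RXRB and NCOR1 was therefore part of what found them, and it is described here without a test.

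Middle cerebral artery (MCA) segments, cleaned of adipose and connective tissue, came from fetuses at a premature and at a near-term age, from newborn lambs and from adult sheep. At each age, segments were left untreated or were exposed to 10 µM phenylephrine (PHE), an agonist of alpha1-adrenergic receptors, for 30 minutes. RNA was hybridized to 32 one-colour arrays, 4 for each of the 8 groups. The labels number separate arrays, each experiment used 4 animals, and whether an untreated and a PHE array with the same number came from 1 animal is not given in the sources used here. By the sample labels the premature fetuses were 96 days old, the near-term fetuses 146 days, the newborn lambs 12 hours and the adult sheep 2 years. The series' design text instead has gestational ages of 96 and 140 days for the fetuses, 5 days for the lambs and 18 to 24 months for the nonpregnant adults.

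PPARG is a transcription factor that is switched on by fatty acids and related ligands, and it binds DNA as a pair with a retinoid X receptor such as RXRB. Without a ligand, a complex built on NCOR1, with the histone deacetylase HDAC3, keeps target genes low, and ligand binding exchanges this complex for coactivators. PPARG is best known for driving fat cell formation, and in the vessel wall it is also present in smooth muscle and endothelial cells.

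Levels are on the log2 scale relative to the 75th percentile of each array, so that 0 is the intensity at that percentile. They compare arrays for the same gene and do not rank genes against each other. The 75th percentile itself ranged from 124 intensity units on untreated replicate 4 of the near-term fetus, 1.08 times the median background of that array, to 1710 on untreated replicate 3 of the adult sheep. All premature arrays shared 1 slide and all newborn arrays another, scanned on 1 day. Near-term and adult arrays lay on 3 other slides scanned on another day, of which 1 held near-term arrays only. Levels of ages from different days are therefore given without a test, because the scan day cannot be separated from age. The listed near-term means matched the arrays for 1101 of 1106 genes without PHE replicate 1 and for 6 with it, so the near-term PHE differences of the members are given both with and without this array, and those of single other genes with it. With 4 arrays per group, precision is limited throughout.

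RXRB and NCOR1 were well above background on all 32 arrays, and no member was saturated or marked as an outlier spot on any array. PPARG was well above background on 28 arrays, which were the 24 arrays of the fetuses and lambs and 4 of the 8 adult arrays. Of the smooth muscle markers measured, CNN1 was well above background on all 32 arrays and CALD1 on 21. Both endothelial markers measured were mostly below it, with the probe used for KDR well above background on 4 arrays and that for FLT1 on 1, and a second probe of each on 6 and 2.

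**Figure D1:**
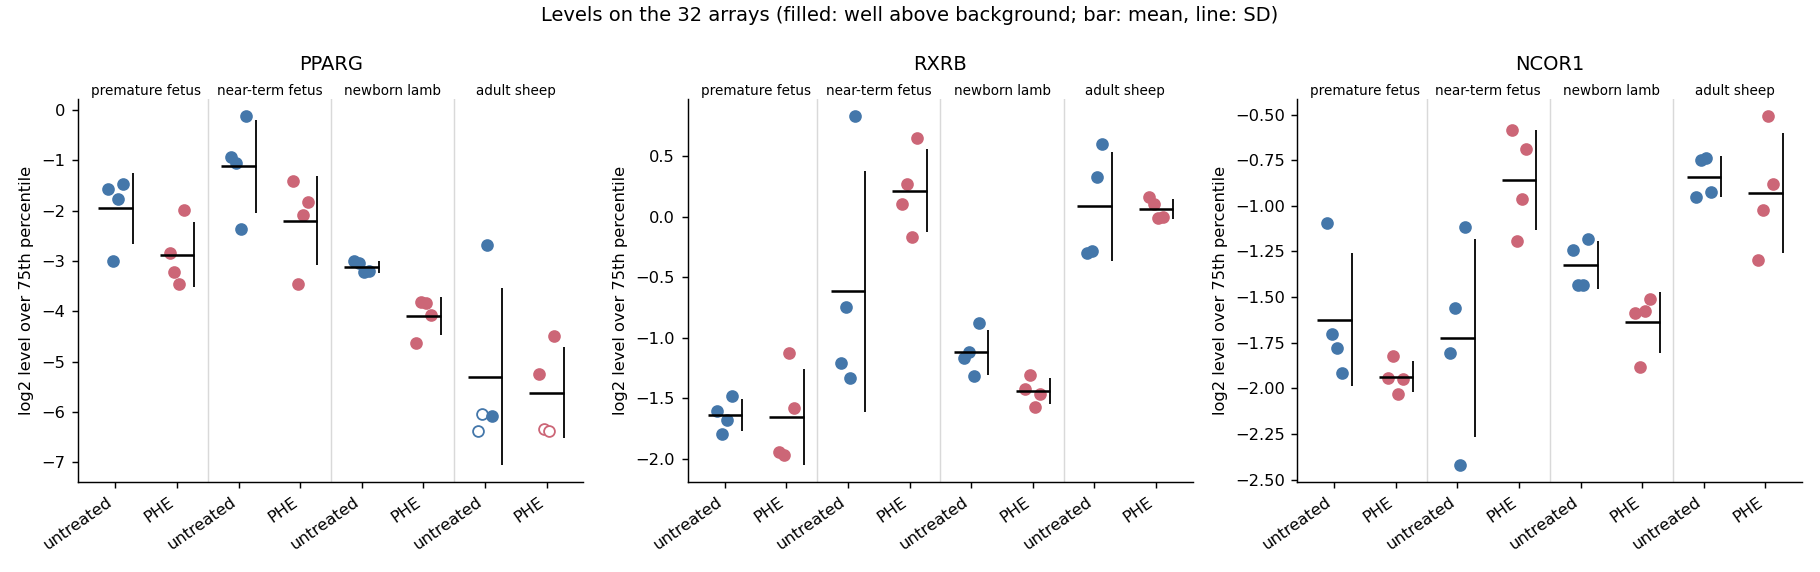
Level of PPARG, RXRB and NCOR1 on each of the 32 arrays (vertical axis, log2 relative to the array's 75th percentile) for untreated (blue) and PHE-treated (red) segments at 4 ages, with the group mean (bar) and SD (line); open circles are values not well above background. PPARG is low on most adult arrays, with untreated replicate 3 at -2.68, and RXRB and NCOR1 are higher in the near-term PHE group and the adult groups than in most other groups.

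PPARG, the receptor, was lower on average with PHE at the 3 ages where it could be tested, and none of these differences passed the test in the fit to all arrays. In the premature fetus the untreated arrays had PPARG levels of -1.58, -3.01, -1.77 and -1.47, and the PHE arrays -2.84, -3.21, -3.47 and -1.99. The groups overlapped through untreated replicate 2, which lay among the PHE arrays, and every PHE array was below the untreated mean. Arrays of the same number correlate in the data of this age, and PPARG was lower with PHE in 4 of 4 such pairs. The PPARG difference was -0.92 (SE 0.62) on the log2 scale, with an adjusted p of 0.340 from limma. In this comparison 17.0% of all genes tested were called, meaning an adjusted p under 0.05 with a fold of at least 1.5, 8.48% higher and 8.54% lower with PHE. In bulk RNA, fewer cells that express PPARG and less PPARG RNA per cell cannot be told apart.

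In the near-term fetus PPARG levels were -0.94, -1.06, -2.37 and -0.13 in untreated segments and -1.41, -3.45, -2.10 and -1.84 with PHE. Untreated replicate 3 lay among the PHE arrays, and the other untreated arrays were above all PHE arrays. The PPARG difference was -1.07 (SE 0.62) and missed the call (limma, adjusted p of 0.173), where 35.6% of genes were called, 17.1% higher and 18.5% lower. Without PHE replicate 1 it was -1.34 (SE 0.67, adjusted p of 0.105), without PHE replicate 2 it was -0.66 and without untreated replicate 4 it was -0.74. The call was gained with normexp background correction (-1.32, adjusted p of 0.00732) and with quantile normalization (-1.49, adjusted p of 0.0226). Relative to the median of all genes, which normexp moved by -0.33, the PPARG difference was -0.98 in the fit to all arrays, -0.90 with normexp and -1.45 with quantile normalization. All 4 PHE arrays shared a slide with only untreated replicate 4, against which the PPARG difference was -2.07, and with slide as a block it was the same -2.07 with an adjusted p of 0.0829.

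In the newborn lamb PPARG levels were -3.00, -3.05, -3.23 and -3.20 in untreated segments and -4.64, -3.81, -3.85 and -4.08 with PHE. All 4 PHE arrays were below all 4 untreated arrays, and the untreated levels lay closer together than in any other group. The processed PPARG intensity was 70.3 to 108 on the untreated arrays and 33.2 to 51.1 on the PHE arrays. On the PHE arrays the lowest signals well above background were 25.7 to 29.7, so PPARG lay near that limit. Here too arrays of the same number correlate, and PPARG was lower with PHE in 4 of 4 pairs. The PPARG difference of -0.98 (SE 0.62) was not called in the fit to all arrays, whose single spread also holds the wide adult and fetal groups (limma, adjusted p of 0.380; 10.6% of genes called, 5.38% higher and 5.20% lower). In a fit to the 8 newborn arrays alone the same difference had an SE of 0.19 and an adjusted p of 0.00795, and it was called. That fit called 18.5% of all genes tested. The size of the PPARG difference depended on background correction, as it was -0.16 with normexp (limma, adjusted p of 0.885). Normexp was run with an offset of 50 intensity units, which is added to every signal and changes dim signals most. The part of this offset in the smaller difference was not tested.

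In the adult sheep PPARG levels were -6.38, -6.03, -2.68 and -6.09 in untreated segments and -5.25, -6.33, -6.37 and -4.49 with PHE. Only untreated replicates 3 and 4 and PHE replicates 1 and 4 were well above background, so PPARG was not tested here. Its processed intensity was 267 on untreated replicate 3 and between 10.2 and 39.2 on the other 7 adult arrays, where the lowest signals well above background were 13.6 to 25.5. The measured means differed by -0.32 between PHE and untreated, and by 0.55 in the opposite direction without untreated replicate 3. On the slide that held untreated replicates 1 and 2 and all 4 PHE arrays, the difference was 0.59, and it was 0.38 with slide as a block and 0.02 with normexp, so that no direction can be given.

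Neither difference between ages that was tested in the PHE effect on PPARG was called. The effect in the near-term fetus minus that in the premature fetus was -0.16 (SE 0.88, limma, adjusted p of 0.949), and 4.26% of genes were called in this comparison. Its size and sign were not steady, at -0.42 without near-term PHE replicate 1, -0.52 with normexp, -1.15 with slide as a block and 0.26 without near-term PHE replicate 2. For the newborn lamb minus the premature fetus it was -0.06 (SE 0.88, limma, adjusted p of 1), where 0.01% of genes were called. This too was not steady, at 0.64 with normexp, 0.04 with median scaling and -0.26 to 0.29 with an array left out. The effect in the adult sheep minus that in the near-term fetus is given without a test, since the adult effect was not tested. It was 0.76 in the fit to all arrays, 1.02 without near-term PHE replicate 1, 1.34 with normexp and 2.45 with slide as a block, and 10.6% of all genes were called in this comparison.

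**Figure D2:**
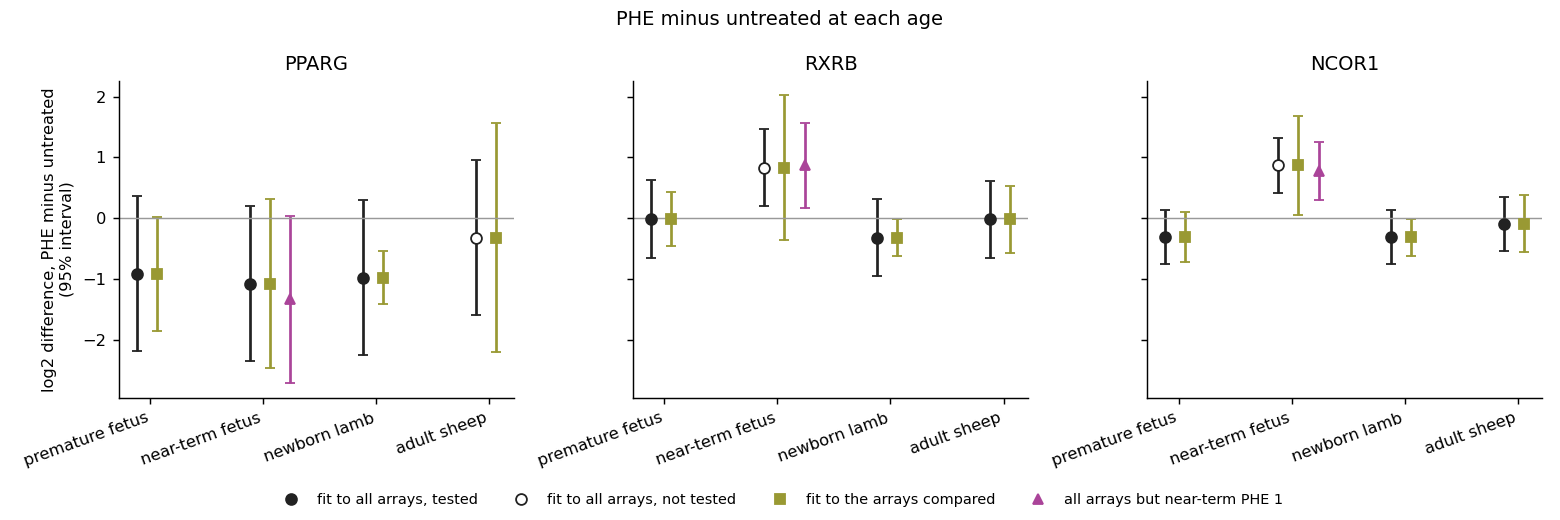
Difference between PHE and untreated segments (vertical axis, log2) with its 95% interval for each member at 4 ages, in the fit to all arrays (circles, open where not tested), in a fit to the arrays compared alone (squares) and without near-term PHE replicate 1 (triangles). The PPARG interval in the newborn lamb runs from -2.25 to 0.30 in the fit to all arrays and from -1.41 to -0.54 in the fit to the newborn arrays, and the near-term intervals of RXRB and NCOR1 are a description.

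Between untreated adult and near-term arteries, which were scanned on the same day, the levels given above did not overlap. The PPARG difference is a description, because the probe passed the filter only through the near-term arrays, where it is high. It was -4.17, in a comparison where 43.4% of genes were called. It was -3.44 on the slide that held near-term untreated replicate 1 and adult untreated replicates 3 and 4, and -4.49 on the slide with replicates 2 and 3 of the near-term fetus and 1 and 2 of the adult. With slide as a block it was -4.07, with normexp -2.90 (-2.49 relative to the median of all genes, against -4.16), and without adult untreated replicate 3 it was -5.04. Since only 2 of 4 untreated adult arrays were well above background, its exact size is not known.

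Between untreated newborn and premature arteries the PPARG difference was -1.16 (SE 0.62), and it was not called in the fit to all arrays (limma, adjusted p of 0.260; 10.8% of genes called). All 4 newborn arrays were below the premature mean, and 3 of them below every premature array. In a fit to the untreated arrays of these ages alone the same difference was called (SE 0.31, limma, adjusted p of 0.0249), and 21.8% of genes were called there. Each age had a slide of its own, so age and slide cannot be told apart in this comparison.

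Across the 8 groups the mean PPARG level fell in the order near-term untreated (-1.13 ± 0.93, SD, n = 4), premature untreated (-1.96 ± 0.71), near-term PHE (-2.20 ± 0.88), premature PHE (-2.88 ± 0.65), newborn untreated (-3.12 ± 0.11), newborn PHE (-4.09 ± 0.38), adult untreated (-5.29 ± 1.75) and adult PHE (-5.61 ± 0.91). Only the step from newborn untreated to newborn PHE lay clearly outside the spread of both groups, 0.98 against 0.28, with no overlap. The step from near-term untreated to premature untreated was as large as their spread and their ranges overlapped, and the other neighbours did not differ beyond it.

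RXRB, the partner, showed no called difference with PHE at the ages where it was tested. In the premature fetus RXRB levels were -1.61, -1.80, -1.68 and -1.48 in untreated segments and -1.95, -1.97, -1.13 and -1.58 with PHE. The PHE arrays lay on both sides of the untreated arrays, 3 of 4 below the untreated array of their number, and the RXRB difference was -0.01 (SE 0.31, limma, adjusted p of 0.985). In the newborn lamb the untreated levels were -1.17, -1.12, -1.32 and -0.88 and the PHE levels -1.42, -1.31, -1.57 and -1.47. Here 3 of 4 PHE arrays were below every untreated array and 4 of 4 below that of their number, with an RXRB difference of -0.32 (SE 0.31, limma, adjusted p of 0.626). With normexp it was -0.21 in the premature fetus and -0.10 in the newborn lamb.

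In the adult sheep RXRB levels were -0.30, -0.28, 0.33 and 0.60 in untreated segments and 0.16, 0.11, -0.01 and 0.00 with PHE. The untreated arrays fell apart by slide, replicates 1 and 2 below the PHE arrays with which they shared a slide, and replicates 3 and 4 on another slide above them. The RXRB difference was -0.02 over all adult arrays (SE 0.31, limma, adjusted p of 0.995), 0.36 within the shared slide and 0.17 with slide as a block (adjusted p of 0.865).

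In the near-term fetus, where no test applies, RXRB levels were -1.21, -0.75, -1.34 and 0.83 in untreated segments and 0.11, 0.28, -0.17 and 0.65 with PHE. All PHE arrays were above untreated replicates 1, 2 and 3, and untreated replicate 4, the dimmest of the 32 arrays, was above them all. The measured RXRB difference was 0.83 over all arrays, 0.87 without PHE replicate 1 and 1.31 without untreated replicate 4. It was 0.20 with normexp (0.63 relative to the median of all genes, against 0.92), and -0.61 with slide as a block, where only untreated replicate 4 shares a slide with the PHE arrays. The part of array brightness in this difference was not tested.

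**Figure D3:**
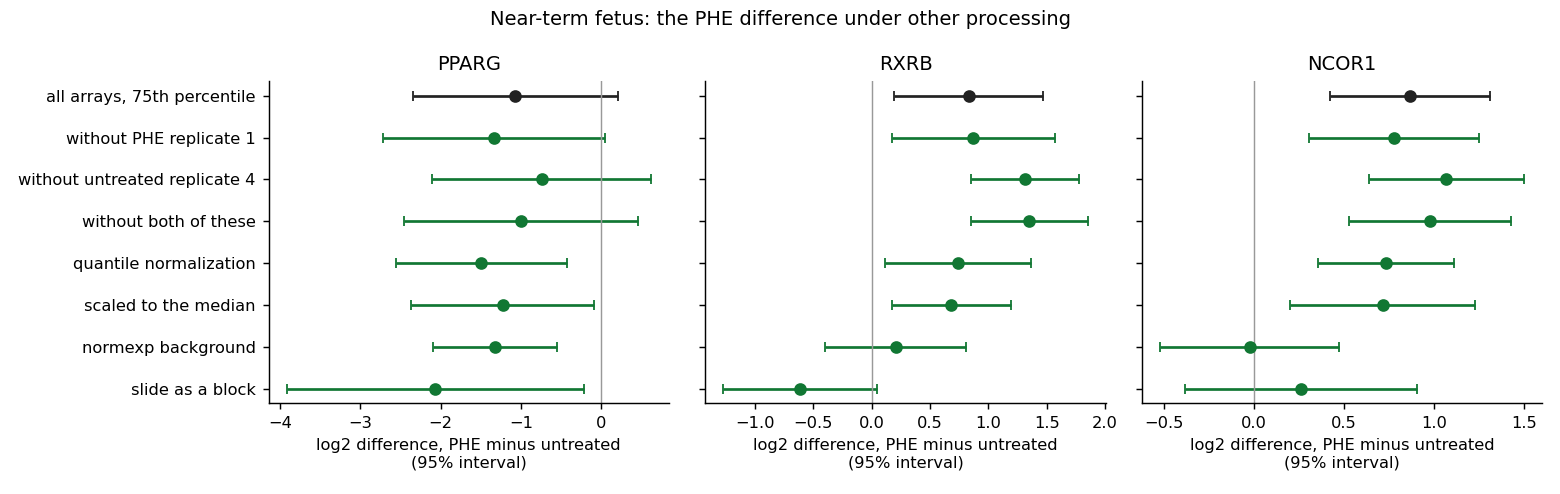
Near-term difference between PHE and untreated segments (horizontal axis, log2) with its 95% interval for each member under 8 ways of processing, as a description for RXRB and NCOR1. RXRB runs from -0.61 with slide as a block to 1.35 without both dim arrays, NCOR1 from -0.02 with normexp to 1.07 without untreated replicate 4, and PPARG is below 0 in all of them.

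Untreated RXRB was higher in the newborn lamb than in the premature fetus on all 4 arrays, with no overlap, by 0.52 (SE 0.31), and it was not called (limma, adjusted p of 0.322). In the fit to the untreated arrays of these ages alone the limma adjusted p was 0.0225, and the fold was below 1.5. Differences of RXRB and NCOR1 between untreated adult and near-term arteries are a description, because the near-term means were among the values that found both probes. For RXRB this difference was 0.70 and the groups overlapped. Without untreated replicate 4 of the near-term fetus it was 1.18, and it was 1.12 with slide as a block and 1.24 with scaling to the median, of which 0.54 was a shift of all genes. With normexp it was -0.02. Within slides it was 1.68 and 0.75.

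The order of RXRB means over the 8 groups was near-term PHE (0.22 ± 0.34, SD, n = 4), adult untreated (0.09 ± 0.45), adult PHE (0.07 ± 0.08), near-term untreated (-0.62 ± 1.00), newborn untreated (-1.12 ± 0.18), newborn PHE (-1.44 ± 0.11), premature untreated (-1.64 ± 0.13) and premature PHE (-1.66 ± 0.39). The steps from newborn untreated to newborn PHE and from there to premature untreated were larger than the spread of the groups on either side, although the ranges touched. The remaining neighbours did not differ beyond their spread.

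NCOR1, the corepressor, also had no called difference with PHE where it was tested. In the premature fetus NCOR1 levels were -1.09, -1.70, -1.78 and -1.91 in untreated segments and -1.94, -1.82, -2.03 and -1.95 with PHE. Untreated replicate 1 stood above the rest, 3 of 4 PHE arrays were below every untreated array, 4 of 4 same-number pairs were lower with PHE, and the NCOR1 difference was -0.31 (SE 0.22, limma, adjusted p of 0.352). In the newborn lamb the untreated levels were -1.24, -1.44, -1.43 and -1.18 and the PHE levels -1.59, -1.88, -1.57 and -1.51. All PHE arrays were below all untreated arrays, as for PPARG, and below their own pair in 4 of 4, by -0.32 (SE 0.22), which was not called (limma, adjusted p of 0.430). With normexp the NCOR1 difference was -0.68 in the premature fetus and -0.14 in the newborn lamb, neither called.

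In the adult sheep NCOR1 levels were -0.95, -0.75, -0.74 and -0.92 in untreated segments and -1.30, -1.02, -0.51 and -0.88 with PHE. The PHE arrays spread to both sides of the untreated ones, with a difference of -0.09 (SE 0.22, limma, adjusted p of 0.947), and -0.08 within the slide that held both groups. In this adult comparison 3.5% of all genes tested were called, 2.70% higher and 0.796% lower with PHE.

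In the near-term fetus, without a test, NCOR1 levels were -1.80, -1.56, -2.42 and -1.12 in untreated segments and -0.58, -1.19, -0.96 and -0.69 with PHE. PHE replicates 1, 3 and 4 were above every untreated array, and PHE replicate 2 was just below untreated replicate 4. The measured NCOR1 difference was 0.87 over all arrays and 0.78 without PHE replicate 1. It was -0.02 with normexp (0.40 relative to the median of all genes, against 0.96). With slide as a block it was 0.26, and there untreated replicate 4 alone stands for the untreated group.

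The PHE effect in the newborn lamb minus that in the premature fetus was -0.31 for RXRB (SE 0.44) and 0.00 for NCOR1 (SE 0.31), each with an adjusted p of 1 from limma. With normexp these differences were 0.11 and 0.54, neither called. In the fit to all arrays 264 of 9985 genes had an unadjusted p under 0.05 in this comparison, and 1 was called. This gene, named after its value was seen, was CEBPD, a regulator of PPARG expression described further on, whose rise was smaller in the newborn lamb by -2.52 on the log2 scale (limma, adjusted p of 0.0438). The call was lost with normexp (adjusted p of 0.104), median scaling (0.11), no filter (0.063) and the replicate number as a block (0.08), and in 14 of 16 fits that left out an array compared. Over all genes, 0 were called in this comparison with normexp and 51 in the fit to the arrays of these ages. Differences that involve the near-term effect on RXRB or NCOR1 were not tested.

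Untreated NCOR1 was higher in the adult sheep than in the near-term fetus by 0.88, with all 4 adult arrays above all near-term arrays, again without a test. The NCOR1 difference was 0.97 and 1.14 within the slides that held both ages and 1.07 with slide as a block. With normexp it was 0.02, while the median of all genes moved by -0.41. Between untreated newborn and premature arteries NCOR1 differed by 0.30 (SE 0.22, limma, adjusted p of 0.439), with overlap at premature replicate 1.

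The order of NCOR1 means was adult untreated (-0.84 ± 0.11, SD, n = 4), near-term PHE (-0.86 ± 0.27), adult PHE (-0.93 ± 0.33), newborn untreated (-1.32 ± 0.13), premature untreated (-1.62 ± 0.36), newborn PHE (-1.64 ± 0.17), near-term untreated (-1.72 ± 0.54) and premature PHE (-1.94 ± 0.09). Only the steps on either side of newborn untreated were larger than the spread, and the ranges of all neighbours overlapped. In the fit to all arrays, no member was called with PHE in the premature fetus or the newborn lamb, where 17.0% and 10.6% of all genes were, and neither RXRB nor NCOR1 was called in the adult sheep, where 3.5% were.

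Over the 32 arrays, which share ages, scan days and array brightness, RXRB and NCOR1 had a Pearson r of 0.769 and a Spearman rho of 0.734. The r was 0.721 over the 16 near-term and adult arrays (rho 0.371), 0.417 over the 16 premature and newborn arrays (rho 0.324), and 0.425 for deviations from the group means (0.573 and -0.14 on the same sets of 16 arrays). PPARG had an r of -0.22 with RXRB (rho -0.16) and of -0.32 with NCOR1 (rho -0.24), which weakened to -0.15 and -0.20 without the 2 arrays farthest from the PPARG median. For deviations from the group means these r had the opposite sign, 0.331 with RXRB and 0.354 with NCOR1, and were near 0 over the premature and newborn arrays, at 0.06 and 0.03.

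Among 1282 genes with a symbol that were well above background on all arrays, the levels most like PPARG were those of TRIM5, an antiviral factor, with an r of 0.878 (rho 0.863), the fetal growth factor IGF2 with 0.863 (rho 0.809), and FST, which binds activin, with 0.862 (rho 0.802). For deviations from group means their r with PPARG was 0.603, 0.732 and 0.498 over all arrays, and 0.295, 0.547 and -0.12 over the premature and newborn arrays. Like PPARG, IGF2 was lower in untreated adult than in untreated near-term arteries, at 0.67 ± 0.98 against 5.31 ± 1.16 (SD, n = 4).

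RXRB was most like KCTD15 with an r of 0.952 (rho 0.929), TOMM40, part of the mitochondrial import pore, with 0.940 (rho 0.911), and the SUMO protease SENP3 with 0.936 (rho 0.932). For these the r within the scan days ranged from 0.592 to 0.897, and for deviations from group means over the premature and newborn arrays it was 0.759, 0.155 and 0.281. NCOR1 was most like MCM7, a subunit of the replicative helicase, with 0.828 (rho 0.776), WASF2, an actin regulator, with 0.803 (rho 0.757), and the calcium pump ATP2B4 with 0.796 (rho 0.858). The r of WASF2 with NCOR1 was only 0.254 over the premature and newborn arrays, where deviations gave 0.247 for MCM7, 0.151 for WASF2 and 0.699 for ATP2B4. TRIM5 and all 6 genes named for RXRB and NCOR1 carry names found through the list of altered genes, as RXRB and NCOR1 do.

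Of 82 genes on a list of the PPAR pathway (receptors, partners, cofactors, regulators of PPARG expression and targets), 32 were measured, 29 besides the members. Names of 14 of the 29 come from the list of genes altered by PHE at some age, and calls on these genes are no separate evidence of a change, while the names of 15 do not depend on it. In the premature fetus 9 of 23 genes tested were called higher with PHE and none lower, and in the near-term fetus 12 of 24 rose and 1 fell. With normexp 9 were called lower in the near-term fetus, where all genes had 699 calls higher and 3363 lower. Newborn lambs had 7 of 23 called higher and 1 lower, and adult sheep 6 of 20 called higher and none lower. Of all genes tested 8.48%, 17.1%, 5.38% and 2.70% were called higher in order of age. The counts include genes that passed the filter only through the PHE arrays, such as CEBPB and KLF2. Their median differences were 1.05, 1.00, 0.47 and 0.46, beside -0.09, -0.09, -0.08 and -0.05 over all genes tested.

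Of the 15 genes named independently, 9, 10, 9 and 8 could be tested in order of age, and THRA, SCD, UCP1 and UCP3 at no age. The only one called was the coactivator CITED2, at 2 ages, where 35.6% and 10.6% of all genes were called. Their median differences, in order of age, were 0.07, -0.06, 0.23 and 0.12, nearer to those of all genes. Without near-term PHE replicate 1, 2 of 11 tested were called higher in the near-term fetus and their median was -0.44. The share of the list called higher therefore rested on genes whose names exist because they were altered.

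**Figure D4:**
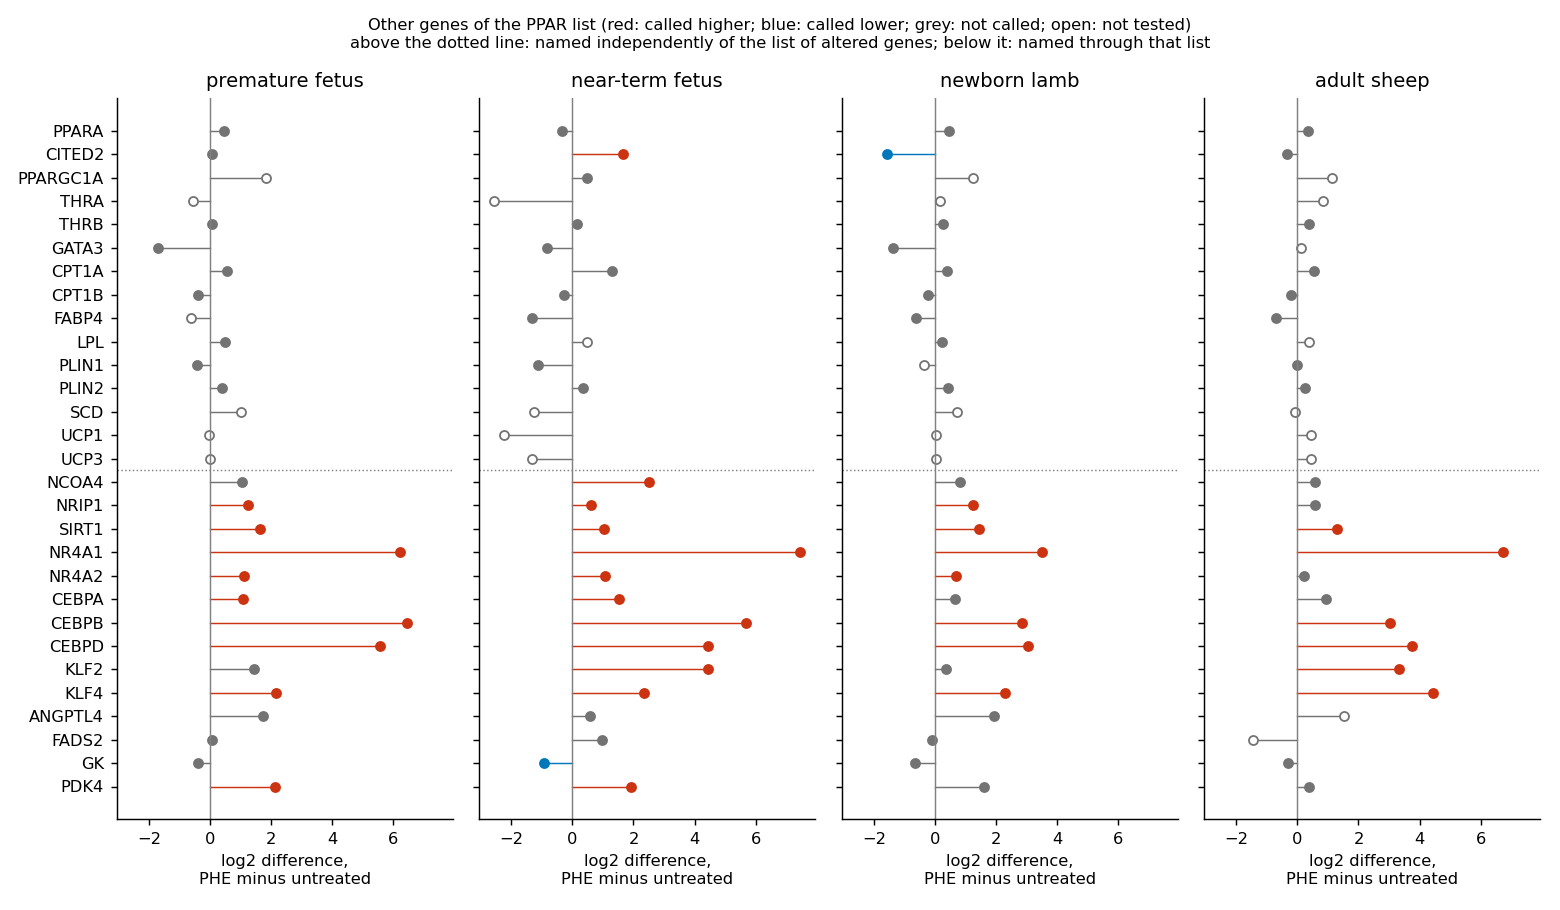
Difference between PHE and untreated segments (horizontal axis, log2, same scale in all panels) at 4 ages for the 29 measured genes of the PPAR list other than the members, called higher in red, called lower in blue, not called in grey and not tested as open circles. Above the dotted line, where names do not depend on the list of altered genes, CITED2 alone is called, and most calls lie below it.

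PPARA was the only other receptor of the PPAR and RXR families with a probe that could be named, and further ones may be among the unnamed probes. Its untreated levels, from the youngest age to the oldest, were -4.98 ± 0.26 (SD, n = 4), -2.87 ± 0.57, -3.81 ± 0.31 and -3.01 ± 0.45. It was not called with PHE at any age, with differences of 0.48, -0.32, 0.47 and 0.35 in the same order.

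Of 4 other receptors measured that pair with RXR, 2 were called with PHE, THRB was called at no age and THRA was too dim to test. NR4A1, an orphan receptor induced early after stimulation, was called at all ages, with differences of 6.21 (limma, adjusted p of 6.65e-09), 7.45, 3.51 and 6.75 in order of age, and its untreated and PHE arrays did not overlap at any age. Its relative NR4A2 was called at the first 3 ages, by 1.10, 1.07 and 0.69 (limma, adjusted p of 0.00260 in the newborn lamb), and differed by 0.23 in the adult sheep without a call. Its adult minus near-term effect was -0.85 (limma, adjusted p of 0.0155), called in the fit to all arrays and not in that to these ages (adjusted p of 0.238) or with median scaling (0.28).

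Of the 2 other corepressors measured, the deacetylase SIRT1 was called higher at all 4 ages, by 1.64, 1.04, 1.46 and 1.28 (limma, adjusted p of 0.00238 in the adult sheep). A second SIRT1 probe, well above background on 23 arrays, differed in the same direction at each age. NRIP1, which represses nuclear receptors bound to a ligand, was called higher in the premature fetus (1.24) and the newborn lamb (1.25), narrowly in the near-term fetus (0.62, limma, adjusted p of 0.0420), where 8 other settings lost the call, and was 0.58 in the adult sheep without a call. Both were named through the list of altered genes, and whether their effects differ from that of NCOR1 was not tested.

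CITED2 was called higher in the near-term fetus by 1.67 (SE 0.35, limma, adjusted p of 6.65e-04) and lower in the newborn lamb by -1.58 (SE 0.35, limma, adjusted p of 0.00320). Both probes of CITED2 gave these directions, with 1.68 and -1.47 on the second. In a fit to the near-term arrays alone the near-term difference was not called (limma, adjusted p of 0.162). Its PHE effect in the adult sheep minus that in the near-term fetus was -1.997 and called (limma, adjusted p of 0.0143), but it was not called in the fit to the arrays of these ages (adjusted p of 0.216) or with slide as a block (0.0727). Its near-term and newborn effects minus the premature effect were 1.61 (adjusted p of 0.0638) and -1.64 (adjusted p of 0.85), without a call, and were not compared with each other. In a fit to the premature and newborn arrays alone the latter was called (adjusted p of 0.02).

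Of 6 measured genes that control PPARG expression, CEBPB and CEBPD act upstream of PPARG in fat cell formation. CEBPD was called higher at all ages, by 5.55 (limma, adjusted p of 2.66e-12), 4.44, 3.04 and 3.76. CEBPB was called higher in newborn lambs (2.86) and adult sheep (3.05). In each fetal group 2 of 4 untreated CEBPB arrays were well above background, so its fetal differences of 6.44 and 5.70 are a description whose exact size is not known. GATA3, the only one of the 6 named independently, was lower by -1.71 (limma, adjusted p of 0.0675), -0.83 and -1.38 at the 3 younger ages, without a call. It has 3 probes, and only that with the highest mean level is given here. KLF4 was called at all ages as well, by 2.16, 2.35, 2.28 and 4.43. A second KLF4 probe, well above background on only 10 arrays, differed by 1.79, -0.71, 2.78 and 0.64 in order of age. The mean of both probes in the near-term fetus was 0.82 and not called. The KLF4 effect in adult sheep minus that in the near-term fetus was 2.08 (limma, adjusted p of 0.0127), called in the fit to all arrays and not in that to these ages (adjusted p of 0.166). KLF2, which holds PPARG expression down in fat cell precursors, was not called in the premature fetus (1.46) or newborn lamb (0.36). Its differences of 4.43 (near-term fetus) and 3.32 (adult sheep) are a description too, with 1 and 2 of 4 untreated arrays well above background.

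Of 13 target genes measured, 9, 9, 9 and 7 could be tested in order of age, SCD, UCP1 and UCP3 at none, and 2 were called at any age, where 17.0%, 35.6%, 10.6% and 3.5% of all genes were called. PDK4, which limits glucose oxidation, was called higher in the premature fetus by 2.12 and in the near-term fetus by 1.92 (limma, adjusted p of 0.0117 in each), and by 0.94 and 0.89 without a call with normexp. The other, glycerol kinase (GK), was called lower in the near-term fetus by -0.92 (limma, adjusted p of 0.0167). FABP4 and PLIN1, classic fat cell targets, had no call at any age tested.

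FABP4, also an adipocyte marker, was set beside PPARG because segments had been cleaned of fat. In untreated adult arteries FABP4 levels were -2.38, -3.54, 0.59 and -2.35, so that replicate 3, the array with the high PPARG level, was also the highest in FABP4. PLIN1, LEP and LPL were not high on that array, at -5.19, -7.50 and -7.51, and the last 2 were not well above background there. In the near-term fetus FABP4 levels were -1.61, -0.97, -2.85 and -1.37 in untreated segments and -3.11, -2.83, -3.65 and -2.53 with PHE. Untreated replicate 3 was the lowest untreated array for both FABP4 and PPARG. In PLIN1, LEP and LPL the lowest untreated array was replicate 1, at -4.17, -4.95 and -6.07, the last 2 not well above background. The FABP4 difference there was -1.33 (SE 0.73, limma, adjusted p of 0.150). In the premature fetus, where PPARG levels were high, FABP4 was well above background on 1 of 8 arrays. PLIN1 was well above background on all premature arrays, LPL on 2 of 4 untreated and 4 of 4 PHE arrays, and LEP on none. The part of adipocytes in the PPARG levels was not tested beyond these values.

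**Figure D5:**
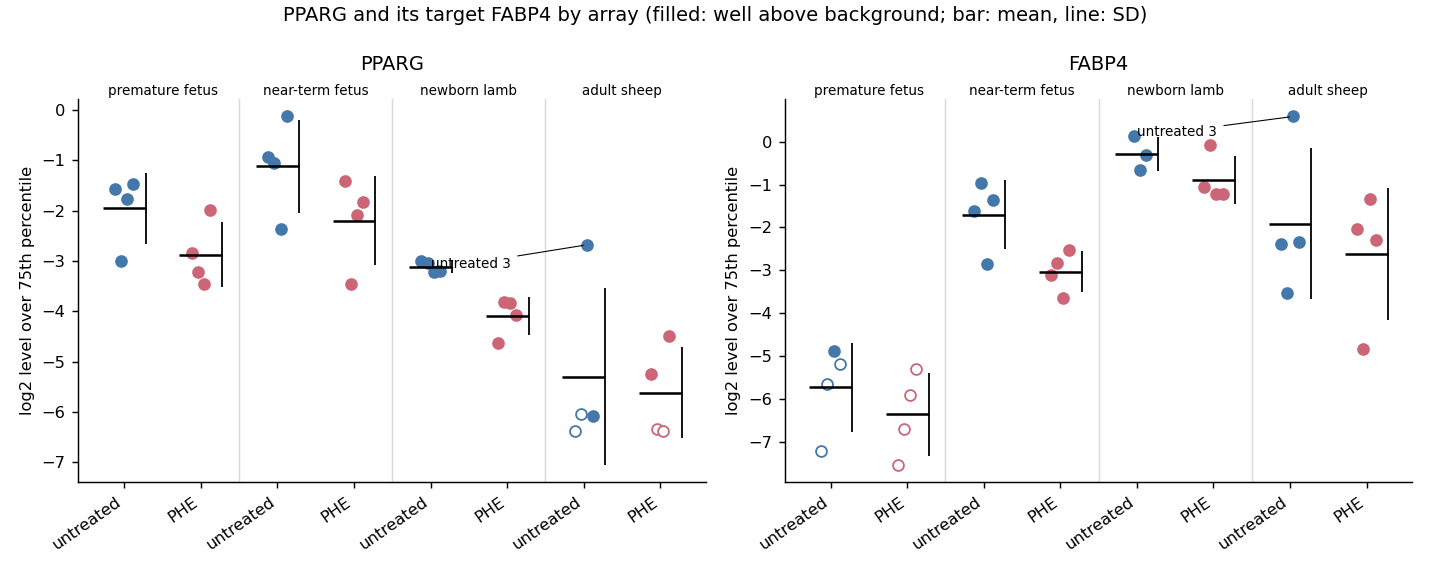
Level of PPARG and of FABP4 on each array (vertical axes, log2 relative to the array's 75th percentile) for untreated (blue) and PHE-treated (red) segments at 4 ages, with group mean (bar) and SD (line); open circles are values not well above background. Untreated replicate 3 of the adult sheep stands at -2.68 in PPARG and at 0.59 in FABP4, above the other adult arrays in both.

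Of 8 adipocyte markers listed, 4 were measured (FABP4, PLIN1, LEP and LPL), with no call where they were tested, and LEP was too dim to test. Their mean level was -3.14 ± 1.03 (SD, n = 4) in untreated and -4.08 ± 1.16 in PHE-treated near-term arteries, -4.90 ± 0.33 and -5.31 ± 0.36 in the premature fetus, -3.67 ± 0.31 and -3.55 ± 0.21 in the newborn lamb, and -5.12 ± 0.26 and -4.99 ± 0.31 in the adult sheep. FABP4 alone was highest in untreated newborn arteries, at -0.28 ± 0.40 (n = 3, 1 spot missing). Without that spot, newborn untreated replicate 1 had a list mean of -4.10 over its remaining markers, the lowest of its group. The 2 newborn list means therefore give no direction. Smooth muscle (2 of 9 measured, CNN1 and CALD1) had no call either, and endothelium (2 of 7) was too dim to test. Of the fibroblast markers (4 of 6 measured), COL1A1, COL1A2 and COL3A1 were called higher in the near-term fetus by 4.22, 4.22 and 3.53, and COL1A2 in the premature fetus by 1.89. The other COL1A2 probe gave 1.31 in the near-term fetus, and DCN, the remaining fibroblast marker, differed by -0.32 there without a call. Of the leukocyte markers (4 of 7), CD68 was called higher at the near-term (0.99), newborn (1.45) and adult (1.24) ages. In the near-term fetus CD3E (-1.34, no call) and the ITGAM probe used (-1.20, not tested) were lower. A second ITGAM probe differed by 0.25 there, and the 3 CD14 probes disagreed in direction. The mean level of the leukocyte list there was -2.38 ± 0.46 (SD, n = 4) untreated and -3.03 ± 0.93 with PHE, while it was higher with PHE at the other ages, from -2.49 to -1.98 in the premature fetus, -2.90 to -2.11 in newborn lambs and -4.44 to -3.65 in adult sheep. Of the blood markers (2 of 5), HBA1 was called lower in the premature fetus by -1.96 and in the near-term fetus by -2.38. The part of these cell types in the members' differences was not tested.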

How the data were processed

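RNA from untreated and PHE-treated MCA segments was measured on 32 one-colour Agilent sheep arrays. The deposited intensities are those the authors read with Feature Extraction (version 9.5.3.1 in each file), background-subtracted within each array and not scaled between arrays. The deposited value matrix equals these intensities on all 32 arrays, on a linear scale, uncentred, with column medians of 39.7 to 558.5.

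Control spots (536 of 15744) were removed, outlier spots were set to missing, and intensities were divided by the 75th percentile of the array, as the study's methods do, and put on the log2 scale. In R 4.3.3, limma 3.58.1 (lmFit, eBayes) fitted 8 group means to all arrays, two-sided, with Benjamini-Hochberg adjustment over all genes tested. A gene was tested if in 1 or more of the groups compared its probe was well above background throughout. Of several probes the one with the highest mean level was used. Summaries used pandas 2.3.3, numpy 2.4.6, matplotlib 3.10.9 and scipy 1.17.1 in Python 3.11.15. The fit was tested on simulated data.

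Of 15008 probes, 543 were named by accession through RefSeq (assembly ARS-UI_Ramb_v3.0, names only), 729 by the files, 1681 by matching listed near-term, newborn or adult group means to the arrays within 0.1%, and 12055 have no symbol here. Sequences of the members were not used.

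Named genes are the members, other PPAR and RXR receptors, in each further role of the pathway list up to 4 genes called at 2 or more ages with the largest summed difference, and for each member the 3 genes with the highest r. Other genes of the lists (such as GK, THRB, GATA3, CEBPA, FABP4 and PLIN1) are named besides, after their values were seen. Members and lists were chosen with earlier results of these data known. Between untreated and PHE arrays of the same number, deviations from group means correlated in all 4 pairs of the premature fetus (r = 0.410 to 0.564) and of the newborn lamb (0.516 to 0.611). They did so in 2 near-term pairs (range -0.15 to 0.43) and no adult pair (-0.11 to 0.05). The pairing at the first 2 of these ages is read from the data, not from the labels. Alternatives were background correction, scaling, filters, samples in the fit, blocks for slide or replicate number, the methods' t-test, the fold threshold, the probes of a gene, the deposited matrix and each array left out. Background correction by normexp used an offset of 50 intensity units. Leaving out near-term PHE replicate 1 with other settings, leaving out both dim near-term arrays, and using only independently named genes were added after seeing the data. The result of 1 marker list is not reported here.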

Additional observations from a re-analysis of the deposited data

Results flagged for a closer look

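On untreated replicate 3 of the adult sheep PPARG stood at -2.68, while the other untreated adult arrays lay between -6.38 and -6.03. Its gap to the nearest array made up 0.907 of the range of the group. PPARA was set apart on the same array in the opposite direction, at -3.68 against -2.85 to -2.74 on the other arrays, with a gap of 0.888 of the range. These were the only such arrays in the 32 groups of 4 examined for PPARG, RXRB, NCOR1 and PPARA, and chance sets apart about 1 in 20 groups. This array was also the brightest of the 32, with a 75th percentile of 1710 intensity units. Of the untreated adult arrays it was lowest in the smooth muscle marker CNN1 (7.76 against 8.77 to 9.03). The other smooth muscle marker measured, CALD1, was not lowest on it, so the smooth muscle markers give no direction. The array was highest in the fibroblast marker COL1A1 (-0.81 against -1.98 to -1.70), and its levels of the other fibroblast markers are not given here. The part of brightness or of cell types in these levels was not tested. Without it, untreated adult and near-term arteries differed in PPARG by -5.04 in place of -4.17, and PHE-treated and untreated adult arteries by 0.55 in place of -0.32.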

How the results depend on the processing

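Under alternatives other than a left-out array, 263 values of the members kept their direction and call, or, where untested, moved by less than the spread between replicates. For the changes below the cause was not tested.

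PPARG with PHE was called in the near-term fetus at -1.32 (normexp) and -1.49 (quantile), and in newborn lambs at -0.98 in the fit to the arrays compared and by the methods' t-test without adjustment. Under these last settings its untreated newborn minus premature difference was called at -1.16, while adult minus near-term, a description without a test, kept its size of -4.17. The newborn minus premature effect of PPARG turned to 0.64 (normexp) and 0.0431 (median scaling). RXRB with PHE moved to -0.61 in the near-term fetus and turned to 0.17 in adult sheep when slide was the block, and its newborn minus premature effect turned to 0.11 (normexp). Its untreated adult minus near-term difference turned to -0.0240 (normexp) and rose to 1.24 (median scaling), 1.12 (slide block) and 1.18 (both dim near-term arrays left out). NCOR1 with PHE moved to -0.0244 (normexp) and 0.26 (slide block) in the near-term fetus, and its newborn minus premature effect turned to 0.54 (normexp), 0.0615 (quantile) and 0.10 (median scaling). Its untreated newborn minus premature difference turned to -0.18 (normexp). Adult minus near-term, a description without a test, fell to 0.0177 (normexp) and kept its size of 0.88 in the fit to the arrays compared.

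Leaving out each array in turn, PHE differences by age ranged for PPARG from -1.27 to -0.72, -1.49 to -0.66, -1.07 to -0.80 and -0.69 to 0.55, for RXRB from -0.188 to 0.0922, 0.59 to 1.31, -0.39 to -0.24 and -0.149 to 0.152, and for NCOR1 from -0.41 to -0.14, 0.64 to 1.07, -0.36 to -0.23 and -0.229 to 0.0339. Differences of PPARG effects ranged from -0.574 to 0.260 (near-term minus premature), -0.256 to 0.290 (newborn minus premature) and 0.34 to 1.63 (adult minus near-term), and newborn minus premature was -0.41 to -0.13 for RXRB and -0.179 to 0.0942 for NCOR1. Untreated newborn minus premature and adult minus near-term ranged from -1.51 to -0.996 and -5.04 to -3.81 for PPARG, 0.44 to 0.59 and 0.462 to 1.18 for RXRB, and 0.20 to 0.48 and 0.65 to 1.09 for NCOR1. Near-term pathway genes called lower ranged from 0 to 3.

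On other named genes, 39 values under alternatives missed a call made in the fit to all arrays and 5 gained one. Without a call, 3 turned direction, and 551 did none of these. Of 44 results, 2 turned direction, neither called: PPARA (-0.40, normexp) and CITED2 (-0.24, normexp; -0.0620, median scaling), both in the premature fetus. Near-term pathway genes called lower numbered 9 (normexp), 3 (quantile), 2 (no filter) and 0 (independently named) in place of 1, and premature ones 1 (quantile, median scaling) in place of 0. Among independently named genes 0, 1, 0 and 0 were higher in order of age.

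Genes called with PHE ranged from 1048 to 2846, 12 to 4780, 571 to 1822 and 9 to 600 in order of age. The median of all genes moved by -0.33 (normexp) and -0.15 (median scaling) for near-term PHE, -0.13 and -0.12 for premature PHE, 0.11 (normexp) for newborn PHE, -0.15 (normexp) for untreated newborn minus premature, and -0.41 (normexp), 0.28 (quantile) and 0.54 (median scaling) for untreated adult minus near-term. Relative to it, this last difference was 0.71 with the scaling used, and 0.39, 0.29 and 0.71 in the order just given, for RXRB, and 0.89, then 0.44, 0.67 and 0.89, for NCOR1. The share of calls that were higher went from 48.0% to 17.2% (near-term PHE, normexp), from 50.8% to 62.3% and 68.7% (newborn PHE, normexp and median scaling), and from 47.9% to 26.3%, 66.6% and 77.3% (untreated adult minus near-term, normexp, quantile and median scaling).

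With the replicate number as a block (replicate block), 3 pathway genes were lower in the near-term fetus, where the numbers do not pair the arrays, the CEBPD difference of effects lost its call (adjusted p of 0.08), and no other call on members or named genes changed. Every array correlated best with its own number in the premature fetus and newborn lamb, 1 of 4 near-term and 0 of 4 adult. A slide block was not run for untreated newborn minus premature, and the strict filter gave no value for PPARG in adult minus near-term. Signal over background limits PPARG in adult sheep and on the newborn PHE arrays, and all values on near-term untreated replicate 4.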

Other observations

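PPARA and PPARG ran in opposite directions over the 16 premature and newborn arrays, with a Pearson r of -0.86 and a Spearman rho of -0.82. These arrays hold 4 groups on 2 slides, and over the 16 near-term and adult arrays the r was -0.07 and the rho 0.05. For deviations from the group means the r was -0.49 over the premature and newborn arrays, 0.10 over the near-term and adult arrays and 0.01 over all 32. From untreated premature to untreated newborn arteries the mean PPARA level went from -4.98 to -3.81 while that of PPARG went from -1.96 to -3.12.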
